A study of Rattus norvegicus with 12 samples.

Results

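Target genes of the transcription factor NRF2 were followed in primary cortical neuron cultures from fetal rats after exposure to halothane or isoflurane. The set was chosen by gene symbol, with earlier results of these data known, and held 9 genes: Nqo1, Hmox1, Osgin1, Gclc, Gclm, Gsr, Txnrd1, Srxn1 and Sqstm1. Of these, 8 had a probe under that symbol, through 10 of the 21575 spots, and all 8 passed the filter for testing. Gclc, the catalytic subunit of glutamate-cysteine ligase, had no probe under its symbol and was not measured here. Hmox1 and Sqstm1 had a pair of probes each, which were averaged per gene and are also given singly. The 8 genes stood among 9212 named genes and 16548 features tested. The pathway and marker lists used below were chosen in the same way. Counts set beside a share of all features therefore describe these genes and do not test enrichment.

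Cultures came from 3 pregnant rats at day 17 of pregnancy, were kept apart by mother and gave 4 plates per rat. Per rat, 3 of the 4 plates were exposed, so the groups may be matched by mother. On day 16 in vitro, plates spent 6 h in a gas-tight chamber with halothane at 1 MAC (about 1%), halothane at 3 MAC (about 3%) or isoflurane at 3 MAC (about 4%), followed by 6 h of recovery. MAC, the minimum alveolar concentration, is the potency unit of inhaled anaesthetics. Control plates stood in air in that incubator but not in the chamber, so gas and chamber cannot be told apart in any comparison with control. Each of the 4 groups had 3 arrays. No isoflurane group at 1 MAC was measured. The labels do not settle which mother gave which array, so the main test was not paired, and the p-values measure the spread between these plates. The labels name neither the strain nor the sex of the fetuses.

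In the resting cell, NRF2 is held by its partner KEAP1, which passes it to a CUL3 ubiquitin ligase for destruction. Oxidants and electrophiles modify cysteines of KEAP1. NRF2 then escapes, enters the nucleus, pairs with a small MAF protein and binds antioxidant response elements near its target genes, while BACH1 represses some of the same sites. The targets make glutathione and thioredoxin-dependent reducing power, detoxify quinones and break down haem. In brain cultures this response is known to be stronger in astrocytes than in neurons.

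Promoters of the genes in RefSeq (build GRCr8, from 250 bases before to 50 after the start site) were searched on both strands for the core of the antioxidant response element, spelled TGACNNNGC or TGAGNNNGC. Entries were matched by symbol for 7 of the 9 genes, with none for Hmox1 and Gsr. The pattern stood in 3 of the 8 promoters listed for these 7 genes, each of a different gene, against 27.1% of all 33469 promoters listed. Matches to these letters are descriptions and not bound sites. The set was chosen by symbol and not by this pattern. Promoters of the other genes searched, Nqo1 and Osgin1 among them, held no match in this window. The stretches with matches before the start site are shown with the matching letters in capitals, read along the gene's strand.
Gclm promoter, chr2:213031938-213031996, plus strand: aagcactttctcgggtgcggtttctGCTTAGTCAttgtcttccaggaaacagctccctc
Txnrd1 promoter, chr7:22755949-22756007, minus strand: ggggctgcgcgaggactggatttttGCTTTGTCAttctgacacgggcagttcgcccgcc
Srxn1 promoter, chr3:161064669-161064811, plus strand: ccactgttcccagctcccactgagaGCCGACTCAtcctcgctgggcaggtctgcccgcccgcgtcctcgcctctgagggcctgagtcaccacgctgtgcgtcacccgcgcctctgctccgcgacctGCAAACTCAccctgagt
The Gclm match began 172 bases before the start site. The Txnrd1 match began 78 bases before it, in 1 of 2 listed promoters. The Srxn1 matches began 118 and 17 bases before the start. One more Srxn1 match spans the start site and overlaps the AP-1 pattern TGACTCA, which stood in 4.63% of all promoters.

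Every array carried its sample in Cy5 and a pool of control RNA in Cy3. All values are log2 ratios of sample over pool, so 0 is the level of the pool, and all differences are on the log2 scale. Log base 10 and this direction are the likely reading of the deposited values and are not stated. For Hmox1 the mean linear ratio of the 3 controls was 1.01 read as sample over pool and 2.05 read as pool over sample, and for Osgin1 it was 1.09 and 2.25, where pooling these 3 controls would give 1. With base 2 the same means were 0.94 and 1.14 for Hmox1, so this does not settle the base. Read the other way, every higher and lower would be exchanged. With base 2, every difference would shrink by a factor of 3.32.

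A pair of arrays stood apart. Over 8936 genes, the mean r of control replicate 2 with the 3 arrays of halothane 3 MAC was 0.76, against 0.07 and −0.05 with controls 1 and 3. Halothane 1 MAC replicate 1 had a median log2 ratio of 0.281, against −0.005 to 0.005 on the other arrays, and an SD over features of 0.838 against 0.323 to 0.493. Both were kept, and results that rest on them are given with and without them. Markers of other cells separated arrays too. The mean over 10 astrocyte markers lay between −1.06 and −0.95 on the halothane 3 MAC arrays, at −0.94 on control replicate 2, at 0.27 and 0.32 on the other controls, from −0.0035 to 0.12 with halothane 1 MAC and from 0.14 to 0.31 with isoflurane. The mean over 10 neuron markers stayed between −0.42 and 0.10 on all 12 arrays. It ran from −0.42 to −0.18 with halothane 1 MAC and from −0.03 to 0.09 with halothane 3 MAC. Single neuron markers ran both ways on control replicate 2, with 3 below and 5 above controls 1 and 3. For all 10, control replicate 2 was nearer to the halothane 3 MAC mean than to either other control, beside 53.3% of the features on all arrays. Fewer cells of a type and less RNA per cell cannot be told apart here, and with no spot intensities analysed the presence of a marker could not be judged against background.

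At 3 MAC some of the target genes differed between the anaesthetics. Nqo1, Hmox1 and Osgin1 were higher after isoflurane than after halothane, by 3.91-fold, 11.8-fold and 8.77-fold. No target gene passed the test in any comparison with control on all 12 arrays. All isoflurane arrays lay above all controls for 5 of the 8 genes, and for Hmox1 and Osgin1 control replicate 2 lay beside the halothane 3 MAC arrays.

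**Figure D1:**
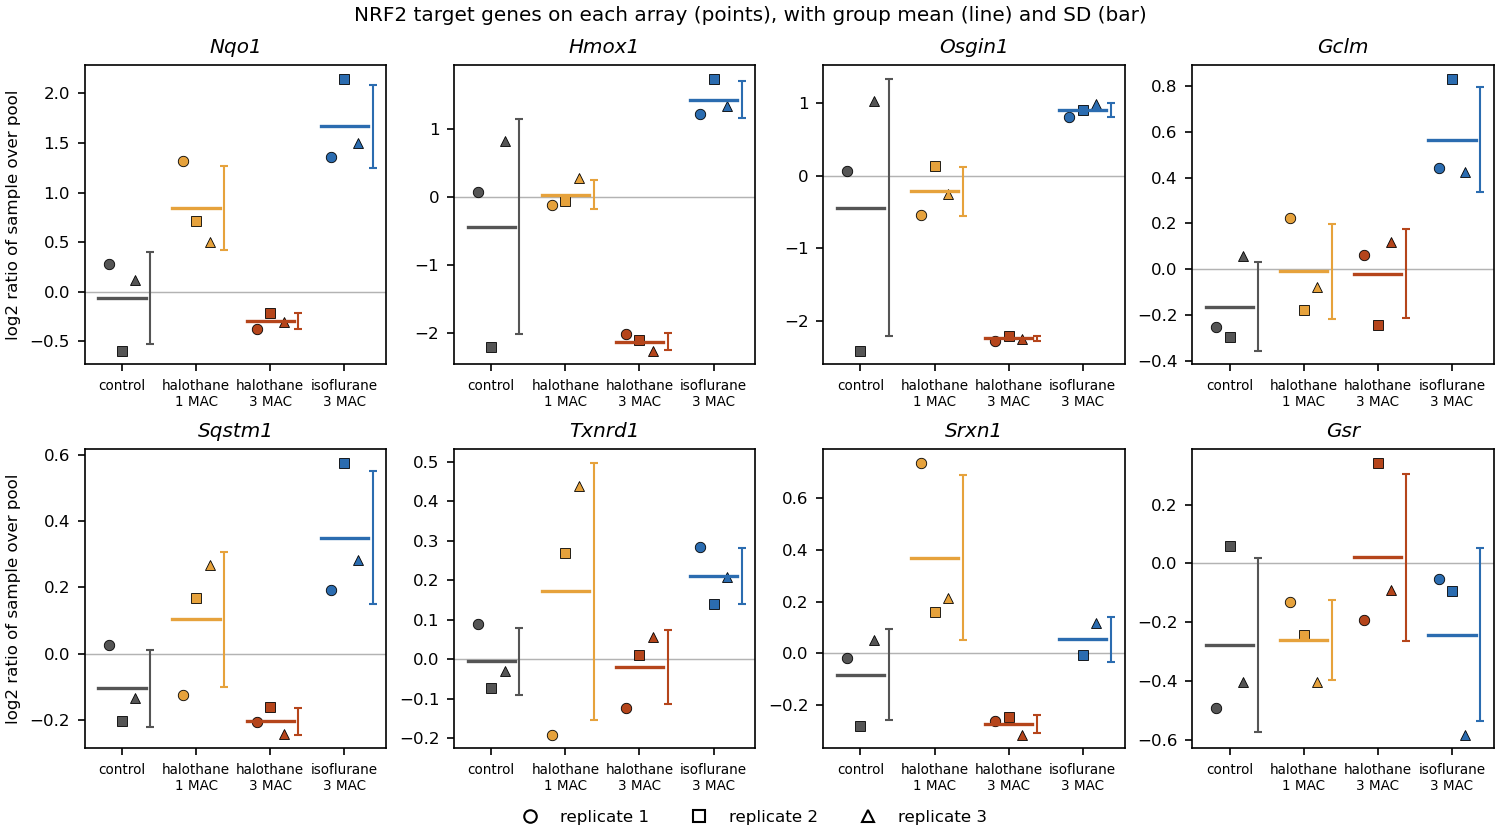
Log2 ratio of sample over pool (vertical axis, its scale differing between panels) of the 8 measured NRF2 target genes on each of the 12 arrays, by group. Points are arrays, lines group means and bars SD. For Nqo1, Hmox1 and Osgin1 the 3 isoflurane arrays lie above the 3 halothane 3 MAC arrays, and control replicate 2 (square) lies far below the other controls for Hmox1 and Osgin1.

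Nqo1 reduces quinones by a 2-electron step that avoids reactive semiquinones. Its log2 ratio was 0.28, −0.59 and 0.11 on the 3 controls, 1.32, 0.71 and 0.50 with halothane 1 MAC, −0.37, −0.21 and −0.31 with halothane 3 MAC, and 1.36, 2.15 and 1.50 with isoflurane. Every isoflurane array was above every other array, every halothane 1 MAC array was above every control, and the halothane 3 MAC arrays lay within the control range. The isoflurane mean was 1.74 ± 0.28 (SE, n = 3 per group) above control, or 3.33-fold, and just missed the threshold (limma adjusted p = 0.0575). Against halothane 3 MAC the difference was 1.97 ± 0.28 and passed (adjusted p = 0.0116). Nqo1 was 0.91 ± 0.28 above control after halothane 1 MAC, which did not pass (limma adjusted p = 0.626). That value was 0.68 without halothane 1 MAC replicate 1, the highest array of its group.

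Hmox1 encodes the inducible haem oxygenase, which opens the haem ring into biliverdin, iron and carbon monoxide. Its log2 ratio was 0.08, −2.21 and 0.82 on the controls, −0.11, −0.05 and 0.28 with halothane 1 MAC, −2.01, −2.11 and −2.26 with halothane 3 MAC, and 1.22, 1.74 and 1.34 with isoflurane. The isoflurane arrays were the highest of all, and control replicate 2 lay among the halothane 3 MAC arrays. Isoflurane exceeded halothane 3 MAC by 3.56 ± 0.56 (95% interval 2.32 to 4.79, limma adjusted p = 0.0170). Isoflurane was 1.87 ± 0.56 above control and halothane 3 MAC minus control was −1.69 ± 0.56, and neither difference passed (limma adjusted p = 0.237 and 0.694). Measured against controls 1, 2 and 3 one at a time, the isoflurane mean was 1.35, 3.64 and 0.61 higher.

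Osgin1, the oxidative stress induced growth inhibitor, had log2 ratios of 0.06, −2.41 and 1.02 on the controls, −0.54, 0.14 and −0.25 with halothane 1 MAC, −2.27, −2.20 and −2.24 with halothane 3 MAC, and 0.80, 0.90 and 0.99 with isoflurane. The isoflurane and control ranges overlapped, because control replicate 3 was the highest array of all, and the 3 halothane 3 MAC arrays lay close together beside control replicate 2. Isoflurane exceeded halothane 3 MAC by 3.13 ± 0.62 (95% interval 1.76 to 4.50, limma adjusted p = 0.0254). Against control, isoflurane differed by 1.34 ± 0.62 (limma adjusted p = 0.506). Against controls 1, 2 and 3 singly, that difference was 0.83, 3.30 and −0.13, so its sign depended on the control array.

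Gclm is the modifier subunit of glutamate-cysteine ligase, the first and rate-limiting step of glutathione synthesis, and its promoter held the antioxidant response element letters shown above. Its log2 ratio was −0.25, −0.29 and 0.06 on the controls, 0.22, −0.18 and −0.08 with halothane 1 MAC, 0.06, −0.24 and 0.12 with halothane 3 MAC, and 0.44, 0.83 and 0.43 with isoflurane. The isoflurane arrays were above all 9 others, which overlapped one another, and control replicate 2 lay beside control replicate 1. Isoflurane was 0.73 ± 0.18 above control (95% interval 0.34 to 1.12) and 0.59 ± 0.18 above halothane 3 MAC, and neither passed (limma adjusted p = 0.142 and 0.102).

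Gsr, glutathione reductase, returns oxidised glutathione to its reduced form. The Gsr log2 ratio was −0.49, 0.06 and −0.40 on the controls, −0.13, −0.24 and −0.40 with halothane 1 MAC, −0.19, 0.34 and −0.09 with halothane 3 MAC, and −0.05, −0.09 and −0.58 with isoflurane. All groups overlapped. Isoflurane minus control was 0.04 ± 0.21 (95% interval −0.42 to 0.49, limma adjusted p = 0.990), and isoflurane minus halothane 3 MAC was −0.26 ± 0.21. Gsr was the only one of the 8 with a lower mean after isoflurane than after halothane 3 MAC.

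Txnrd1, the cytosolic thioredoxin reductase, had log2 ratios of 0.09, −0.07 and −0.03 on the controls, −0.19, 0.27 and 0.44 with halothane 1 MAC, −0.12, 0.01 and 0.06 with halothane 3 MAC, and 0.28, 0.14 and 0.21 with isoflurane. The isoflurane arrays were above all controls by a small margin, while the halothane 1 MAC arrays spread over a wider range than either. Isoflurane minus control was 0.22 ± 0.16 (95% interval −0.14 to 0.57, limma adjusted p = 0.780). The interval of isoflurane minus halothane 3 MAC ran from −0.13 to 0.59.

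Srxn1, sulfiredoxin, repairs overoxidised peroxiredoxins. Log2 ratios of Srxn1 were −0.02, −0.28 and 0.05 on the controls, 0.74, 0.16 and 0.21 with halothane 1 MAC, −0.26, −0.25 and −0.31 with halothane 3 MAC, and −0.01 and 0.12 on isoflurane replicates 2 and 3, with no value on isoflurane replicate 1. The order differed from that of Nqo1: halothane 1 MAC was above all controls and above isoflurane, and the highest array was the halothane 1 MAC replicate that stood apart. Halothane 1 MAC minus control was 0.45 ± 0.18 (limma adjusted p = 0.626), and 0.27 without that array. Isoflurane minus control was 0.14 ± 0.20 (n = 2 and 3, limma adjusted p = 0.931).

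Sqstm1 encodes p62, an autophagy receptor that also binds KEAP1. On the controls the averaged Sqstm1 log2 ratio was 0.02, −0.20 and −0.13, and it was −0.12, 0.17 and 0.27 with halothane 1 MAC, −0.21, −0.16 and −0.24 with halothane 3 MAC, and 0.19, 0.58 and 0.28 with isoflurane. The isoflurane arrays were above all controls and all halothane 3 MAC arrays. Isoflurane was 0.45 ± 0.15 above control and 0.55 ± 0.15 above halothane 3 MAC, and neither passed (limma adjusted p = 0.311 and 0.0744). The averaged value hides a disagreement between its probes, given next.

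Both Hmox1 probes ran the same way. Isoflurane minus control was 2.24 on probe 6708 and 1.49 on probe 13198, and halothane 3 MAC minus control was −2.05 and −1.33. Of the Sqstm1 probes, isoflurane minus control was 0.33 on probe 2329 and 0.57 on probe 14422, but halothane 3 MAC minus control was 0.28 and −0.48, opposite in sign. On each Sqstm1 probe taken alone, the isoflurane and control arrays overlapped, so the separation of the averaged gene from control is not a property of either probe. The isoflurane arrays were above all halothane 3 MAC arrays on probe 14422 but overlapped them on probe 2329. The cause of the disagreement was not tested.

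**Figure D2:**
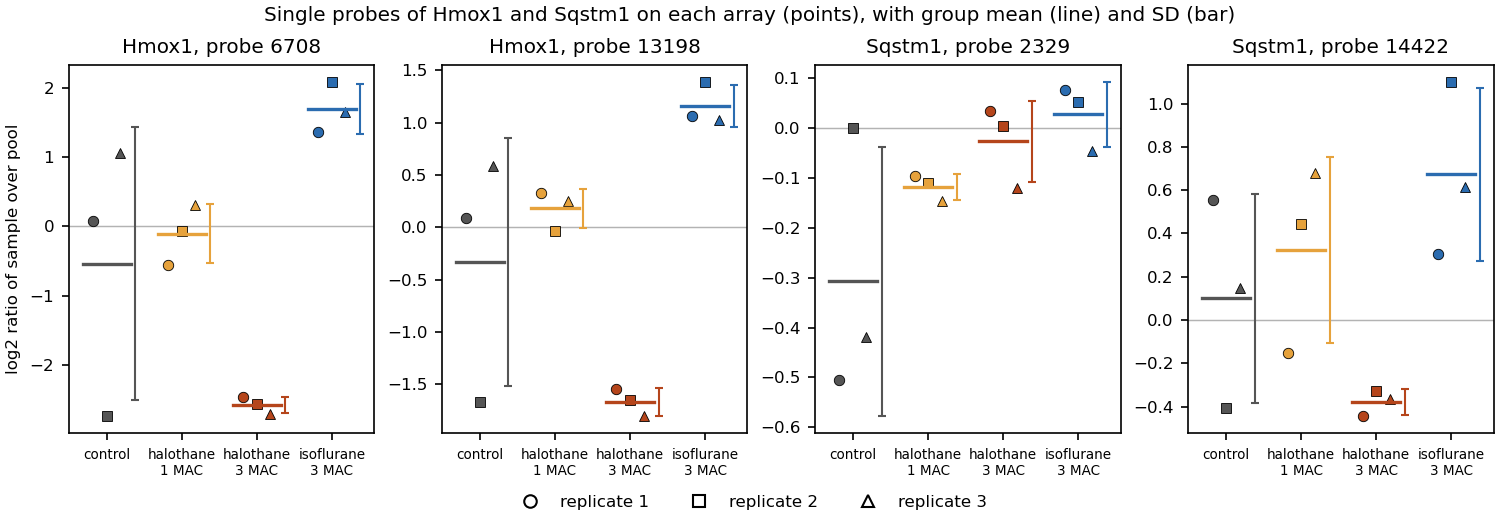
Log2 ratio of sample over pool (vertical axis, its scale differing between panels) of the single probes of Hmox1 and Sqstm1 on each array. Points are arrays, lines group means and bars SD. The Hmox1 probes show the same order of groups, while the Sqstm1 probes place the halothane 3 MAC mean on opposite sides of the control mean.

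Isoflurane against control asks what the ether anaesthetic at 3 MAC, with its time in the chamber, did to the set. Isoflurane was above control for all 8 genes, with a median difference of 0.59, where 50.6% of all features lay above 0 and their median was 0.004. By limma, 0 of 8 passed an adjusted p of 0.05, beside 0.0725% of all features called, and 4 of 8 (Nqo1, Hmox1, Gclm and Sqstm1) had an unadjusted p under 0.05 with a higher mean, beside 6.79% of features. For 5 of 8 (those 4 and Txnrd1) all isoflurane arrays were above all controls, beside 12.7% of features. Control replicate 2 was the lowest control for 7 of the 8 genes, beside 34.9% of the features on all arrays. Without control replicate 2 alone, Nqo1 did not pass (1.47 ± 0.27, limma adjusted p = 0.159). Without both it and halothane 1 MAC replicate 1, Nqo1 passed at 1.47 ± 0.20 (limma adjusted p = 0.0140), where 1.56% of features were called higher. In that fit the Hmox1 difference fell to 0.98 and that of Osgin1 to 0.35.

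Single arrays also moved the isoflurane calls. Nqo1 and Gclm passed without halothane 1 MAC replicate 1 alone (limma adjusted p = 0.0116 and 0.0375), where 1.86% of features were called higher. Nqo1 passed without control replicate 3 alone (limma adjusted p = 0.0485), where 0.4% were. The Nqo1 difference itself stayed between 1.47 and 1.91 whichever array was left out. The Hmox1 difference ranged from 0.98 to 2.50 and the Osgin1 difference from 0.35 to 2.07.

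Halothane at 3 MAC against control asks the same of the alkane anaesthetic at the matched potency. By limma 0 of 8 genes passed, as did 0% of all features, and Hmox1 (−1.69 ± 0.56) and Osgin1 (−1.80 ± 0.62) had an unadjusted p under 0.05 with a lower mean, beside 3.25% of features. No target gene had all halothane arrays above or all below the controls, where 9.11% of features were above and 7.13% below in this way. For 6 of the 8 genes control replicate 2 was nearer to the halothane 3 MAC mean than to either other control, beside 53.3% of the features on all arrays. That control was singled out for its likeness to the halothane 3 MAC arrays, so leaving it out favours a call where it lay beside them. Of the 12 omissions of 1 array, Hmox1 and Osgin1 passed in this 1 only. Without it, the difference was −2.58 ± 0.24 for Hmox1 and −2.78 ± 0.27 for Osgin1, and both passed as lower (limma adjusted p = 0.000644 and 0.000681), where 2.01% of features were called lower. The other 6 genes did not pass without it either, and their differences lay between −0.49 for Nqo1 and 0.47 for Gsr. The astrocyte markers moved with these values: 9 of 10 were lower on control replicate 2, and on all halothane 3 MAC arrays, than on controls 1 and 3, beside 34.9% and 19.7% of the features on all arrays. Gfap, the astrocyte filament protein, was at −1.91 on control replicate 2, from −2.59 to −2.21 with halothane 3 MAC, and at 0.38 and 0.35 on the other controls. The part of the astrocytes in the Hmox1 and Osgin1 values was not tested.

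Halothane at 1 MAC was above control for all 8 genes, with a median of 0.21, where all features had a median of 0.08 and 60.9% lay above 0. By limma 0 of 8 genes passed, beside 0% of features. Nqo1 and Srxn1 had an unadjusted p under 0.05 and did not overlap with control, beside 5% and 6.5% of features higher by these rules. The Hmox1 difference was 0.47 and the Osgin1 difference 0.22 on all arrays. Without control replicate 2 they turned to −0.41 and −0.76, neither of which passed (limma adjusted p = 0.772 for each).

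The halothane doses were compared next. By limma 0 of 8 genes passed, beside 0% of features. The difference of 3 MAC minus 1 MAC was −1.14 for Nqo1, −2.16 for Hmox1, −2.02 for Osgin1 and −0.65 for Srxn1 (limma adjusted p = 0.0780, 0.0887, 0.127 and 0.102), each at an unadjusted p under 0.05, beside 10.6% of features. With Sqstm1, 5 of 8 genes had all 3 MAC arrays below all 1 MAC arrays, beside 15.4% of features. For Sqstm1 this held for the probe average and probe 14422 (group means −0.38 at 3 MAC and 0.32 at 1 MAC). Probe 2329 went the other way, at −0.03 and −0.12. Cell type markers moved in the same comparison: 8 of 10 astrocyte markers had all 3 MAC arrays below all 1 MAC arrays, with a median difference of −0.998, and 5 of 10 neuron markers had them above, beside 12% of features. Their part in the differences of the target genes was not tested. Without control replicate 2, which enters only the shared spread here, Nqo1, Hmox1 and Osgin1 passed, where 2.97% of features were called lower. Without both arrays that stood apart, Nqo1, Hmox1, Osgin1 and Srxn1 passed, where 6.25% of features were called lower.

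Isoflurane and halothane at 3 MAC share the potency unit but not the gas fraction (about 4% and 3%), and both groups stood in the chamber, so this comparison does not involve the control arrays except through the shared spread. Nqo1, Hmox1 and Osgin1 passed as higher after isoflurane, 3 of 8 beside 2.47% of features called higher. For 7 of 8 genes, all but Gsr, every isoflurane array was above every halothane array, beside 19.5% of features. For Sqstm1 this rested on probe 14422 (group means 0.67 with isoflurane and −0.38 with halothane 3 MAC). On its probe 2329 these groups overlapped, with means of 0.03 and −0.03. The 5 that did not pass had intervals of 0.19 to 0.98 for Gclm, 0.22 to 0.89 for Sqstm1, −0.11 to 0.76 for Srxn1, −0.13 to 0.59 for Txnrd1 and −0.72 to 0.20 for Gsr. With 3 arrays a group the calls depended on single arrays although the sizes did not. None of the 3 passed without any 1 of the halothane 3 MAC arrays or without isoflurane replicate 3, and Nqo1 alone passed without isoflurane replicate 1 or 2. Across all such omissions the Hmox1 difference stayed between 3.40 and 3.66 and the Osgin1 difference between 3.09 and 3.18. Without halothane 1 MAC replicate 1, 5 genes passed (Gclm and Sqstm1 with the 3), where 7.43% of features were called higher. Without it and control replicate 2, 6 passed, Srxn1 among them, where 10.9% of features were called higher.

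**Figure D3:**
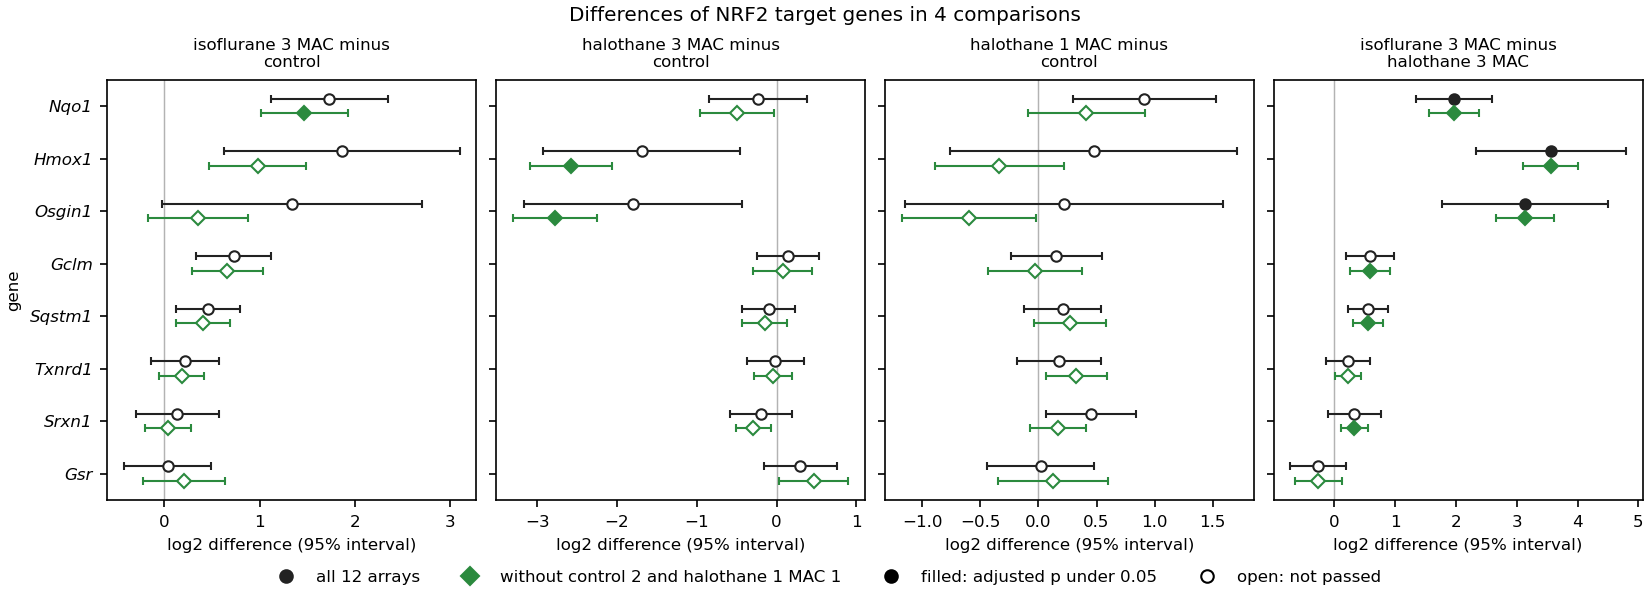
Log2 difference (horizontal axis, its range differing between panels) of each NRF2 target gene in 4 comparisons, with the 95% interval from limma. Circles use all 12 arrays and diamonds leave out control replicate 2 and halothane 1 MAC replicate 1, and filled symbols have an adjusted p under 0.05. On all arrays only Nqo1, Hmox1 and Osgin1 are filled, in isoflurane minus halothane 3 MAC.

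The gene of NRF2 itself, Nfe2l2, was measured as well. Its log2 ratio was 0.49, −2.18 and 0.63 on the controls, −0.16, 0.42 and 0.45 with halothane 1 MAC, −1.79, −1.75 and −1.84 with halothane 3 MAC, and 0.98, 1.50 and 1.20 with isoflurane. The isoflurane arrays were above all others, and control replicate 2 was the lowest array of all. Isoflurane exceeded halothane 3 MAC by 3.02 ± 0.57 (limma adjusted p = 0.0221) and control by 1.58 ± 0.57 (limma adjusted p = 0.350). Nfe2l2 was the only one of 6 measured NRF2 regulators to pass in any of the 5 comparisons. It passed between isoflurane and halothane at 3 MAC, where 2.47% of features were called higher and 1.03% lower. In isoflurane against control 0.0725% of features passed, and in the comparisons without isoflurane 0%. Isoflurane minus control was −0.28 ± 0.35 for Keap1, 0.11 ± 0.16 for the ligase scaffold Cul3 and −0.17 ± 0.25 for the small MAF gene Mafk, all with overlapping groups.

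Among 23 other NRF2 targets measured, 7 were higher and 1 was lower after isoflurane than after halothane at 3 MAC, beside 2.47% and 1.03% of features (limma adjusted p between 0.0116 and 0.0373). The largest of these differences was 3.01 ± 0.41 for Slc7a11, the subunit of the cystine importer that feeds glutathione synthesis. Its isoflurane arrays lay between 1.17 and 1.37 and its halothane 3 MAC arrays between −1.83 and −1.67, with control replicate 2 at −1.55 and the other controls at 0.28 and 0.59. The export pump Abcc4 was 1.18 higher, and its values on controls 1, 2 and 3 were −0.07, −0.52 and −0.20 against 0.52, 0.71 and 0.65 with isoflurane. The glutathione transferases Gsta1 (2.56), Gsta3 (2.06), Mgst1 (2.22) and Gstp1 (1.09) and the iron-binding protein gene Pir (1.46) were the others higher. Transferase probes may also bind near-identical paralogs, so these values are uncertain as to the gene. Idh1, a cytosolic source of NADPH, was the lower one, at −1.39. Against control, 5 of the 23 were higher and 1 lower at an unadjusted p under 0.05, beside 6.79% and 3.35% of features. The median difference over the 23 was 0.32, and 0 passed by limma, beside 0.0725% of features. Abcc4 came nearest, at 0.89 ± 0.16 (limma adjusted p = 0.0798), followed by Idh1 at −0.90, Slc7a11 at 1.49 and thioredoxin, Txn1, at 0.34.

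Of 20 measured enzymes that use glutathione or otherwise clear oxidants, Gpx1, the main cytosolic glutathione peroxidase, was 1.31 ± 0.30 higher after isoflurane than after halothane at 3 MAC (limma adjusted p = 0.0411) and was the only one to pass, 1 of 20 beside 3.5% of features called in either direction, a share near the background. Against control the differences were 0.80 for Gpx1, 0.72 for Prdx6, 0.26 for Gpx4 and 0.23 for Prdx5. The median over the list was 0.15 and 0 passed, beside 0.0725% of features. Of 9 haem and iron genes, biliverdin reductase B (Blvrb, 0.55 ± 0.13) and ferritin light chain (Ftl1, 0.56 ± 0.14) were higher after isoflurane than after halothane at 3 MAC (limma adjusted p = 0.0452 and 0.0494), 2 of 9 beside 2.47% of features. Against control they differed by 0.34 and 0.48, the haem synthesis enzyme Alas1 by 0.84 and the haem carrier Hpx by 0.33. Of the 9 genes 0 passed there, beside 0.0725% of features. Of 7 autophagy receptors and ATG8 proteins, the companions of Sqstm1, 0 passed in either comparison with isoflurane. All features passed at 0.0725% against control and 3.5% against halothane 3 MAC. The 4 with the smallest p against control differed from it by 0.38 for Gabarapl2, 0.37 for Tax1bp1, 0.23 for Nbr1 and 0.17 for Gabarap. In the 3 comparisons without isoflurane, 0 genes of any of these lists passed by limma on all 12 arrays. There 0% of all features passed, so these counts say nothing particular to the lists.

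**Figure D4:**
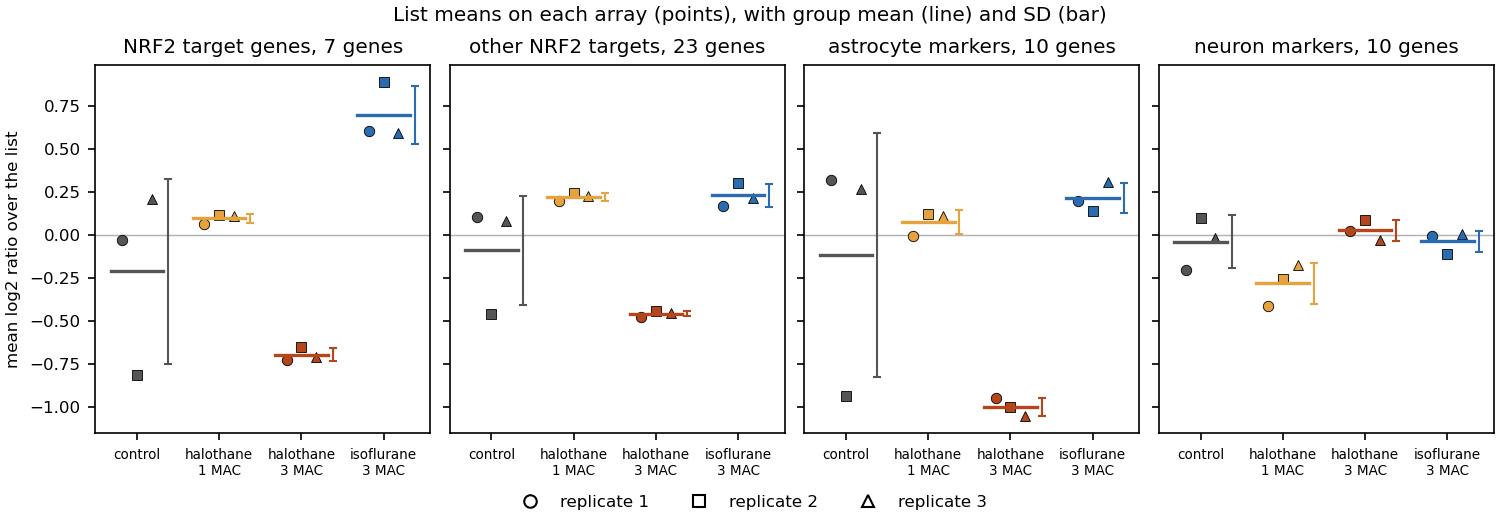
Mean log2 ratio on each array (vertical axis, shared scale) over 7 NRF2 target genes measured on all arrays, 23 other NRF2 targets, 10 astrocyte markers and 10 neuron markers. Points are arrays, lines group means and bars SD. Control replicate 2 lies beside the halothane 3 MAC arrays in the first 3 panels, and the isoflurane arrays stand above the other controls in the first panel and overlap them in the astrocyte panel.

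The mean over the 7 target genes with values on all arrays was taken as a summary, although the genes differed in size and order. It was −0.03, −0.82 and 0.21 on the controls, 0.06, 0.12 and 0.11 with halothane 1 MAC, −0.73, −0.65 and −0.71 with halothane 3 MAC, and 0.61, 0.89 and 0.59 with isoflurane. Isoflurane was highest and halothane 3 MAC lowest but for control replicate 2, and halothane 1 MAC lay between controls 1 and 3. The low place of halothane 3 MAC rested mostly on Hmox1 (group mean −2.12) and Osgin1 (−2.23). Group means of the other genes there lay between −0.30 for Nqo1 and 0.02 for Gsr. Over the arrays, Gsr ran against Hmox1 (r = −0.56) and Osgin1 (r = −0.61). For the astrocyte mean, isoflurane (0.14 to 0.31) overlapped controls 1 and 3 (0.32 and 0.27). Single astrocyte markers were compared with all 3 controls, control replicate 2 among them. On that footing 8 of 10 were above 0 in isoflurane minus control, with a median of 0.36, where 50.6% of features were above 0. None passed by limma, beside 0.0725% of features. Control replicate 2 was below controls 1 and 3 for 9 of the 10, which raises these differences, and they were not computed without it. For Gfap and the glutamate transporter Slc1a3, 2 of 10 beside 12.7% of features, all isoflurane arrays were above all controls. For Aldh1l1, 1 of 10 beside 10% of features, all were below, at −0.22, −0.18 and −0.19 against −0.04, 0.46 and 0.02 on the controls. Both counts were near the share of all features. Slc1a3 was at 0.67, 0.79 and 0.87 with isoflurane and at 0.26, −0.73 and 0.46 on the controls, a difference of 0.78 ± 0.25 (limma adjusted p = 0.269). Between isoflurane and halothane at 3 MAC, however, 4 of 10 astrocyte markers were higher and 1, Aldh1l1, was lower by limma, beside 2.47% and 1.03% of features. Gfap was 2.94 higher (limma adjusted p = 0.0170), and 9 of the 10 differences were above 0, so most of the markers moved with the target genes there. Their part in the 3 calls was not tested.

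Over the 12 arrays, the named genes whose log2 ratios ran closest to that mean, of 8929 outside the set, were Ampd3 (r = 0.991), Cnn3 (0.986), Mgmt (0.984), Ccn1 (0.984) and Ifi27l2b (0.979). Without halothane 1 MAC replicate 1 they were Ampd3, Ccn1, Cnn3, Rnf130 and Mgmt, at r from 0.986 to 0.991. These correlations describe 12 arrays that share one pool and a wide gap between isoflurane and halothane 3 MAC, and they carry no test. Ampd3, an AMP deaminase, had group means of −0.06 for control, 0.47 for halothane 1 MAC, −0.73 for halothane 3 MAC and 1.51 for isoflurane. Ccn1, a secreted matricellular protein, had means of −0.36, −0.22, −1.38 and 1.24 in the same order. Mgmt, a DNA repair methyltransferase, had means of −0.25, 0.43, −1.28 and 1.41.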

How the data were processed

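Two-colour Agilent arrays measured 12 samples. The deposited values were read as log10 ratios of Cy5 (sample) over Cy3 (pool of control RNA), with the dyes per the labels and base and direction likely but not stated. Partek is named per the submitters' processing notes. How background and dyes were corrected is not given in the sources used here. No spot intensities were used, and precision is limited by the number of arrays.

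Values were multiplied by 3.3219 to give log2. Exact zeros (15439, 5.96%) were taken as missing, and 471 unnamed spots at a 100-fold limit on at least 10 arrays were dropped. Platform annotation gave 12750 spots 1 symbol, 5 several and 8820 none, and 12720 matched RefSeq with 0 renamed. Probes of a gene measured on all arrays were averaged, or failing that all its probes. A feature needed values on at least 2 arrays in each group. Tests used limma 3.58.1 in R 4.3.3 (lmFit with 4 group means, eBayes with 8 residual degrees of freedom and 3.46 prior ones, two-sided, Benjamini-Hochberg over 16548 features, threshold 0.05). Errors are SE from this fit. The fit was tested on simulated data. Tables used Python 3.11.15 with pandas 2.3.3 and numpy 2.4.6, and plots matplotlib 3.10.9.

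The genes of the set, the pathway lists and the marker lists (neuron, astrocyte, microglia, oligodendrocyte lineage, endothelial cell and pericyte, fibroblast, dividing progenitor) were chosen with earlier results of these data known. From each pathway list the 4 genes with the smallest p for isoflurane against control, and any past the threshold, are named. The genes most like the set are the top 5 by Pearson r with its mean. Alternatives covered zeros, array scaling, single probes, the groups in the fit, array weights, a replicate block, the filter and each array left out. The single-probe alternative kept, per gene and comparison, the probe with the smallest p. The other probe of Hmox1 or Sqstm1 did not enter it.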

Additional observations from a re-analysis of the deposited data

How the results depend on the processing

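Of 865 gene-level values under the alternatives, 786 kept their direction and side of the threshold, 39 passed only under the alternative, 16 stopped passing and 24 changed sign, the last all for differences that did not pass. For isoflurane against control the count of genes passing (0) became 1 with arrays scaled to one spread, 2 with arrays weighted by their fit and 1 with control replicate 2 and halothane 1 MAC replicate 1 both left out, an alternative chosen after seeing the data. For halothane 3 MAC against control (0) it became 2 with weights and 2 without both arrays, and for halothane 3 MAC against 1 MAC (0) it became 2 in a fit of those groups alone, 6 with weights and 4 without both. For isoflurane against halothane 3 MAC (3) it became 5 in a fit of those groups alone, 7 with weights and 6 without both. With each array left out in turn these counts ran from 0 to 2, 0 to 2, 0 to 3 and 0 to 5, and for halothane 1 MAC against control the count was 0 under every alternative run. Signs changed for Sqstm1 in halothane 3 MAC against control (0.28 on its probe with the smaller p). In halothane 1 MAC against control they changed for Gsr (−0.064 with arrays centred, −0.0061 with quantile normalisation) and, without both arrays, for Hmox1 (−0.34), Gclm (−0.029) and Osgin1 (−0.60). In halothane 3 MAC against 1 MAC Gclm became 0.068 centred, 0.10 by quantiles, 0.091 scaled, 0.17 weighted and 0.11 without both. With arrays left out in turn, differences crossing 0 ran from −0.072 to 0.20 for Gsr with isoflurane, −0.051 to 0.038 for Txnrd1 with halothane 3 MAC, and −0.088 to 0.19 for Gsr, −0.41 to 1.10 for Hmox1 and −0.76 to 0.95 for Osgin1 with halothane 1 MAC, all against control, and −0.093 to 0.11 for Gclm between the halothane doses. The causes were not tested. Srxn1 had no value with isoflurane replicate 2 or 3 left out or with only features on all arrays kept.

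The replicate number as a block left the counts at 0, 0, 0, 0 and 3 of 8 genes, with Nqo1, Hmox1 and Osgin1 still passing between isoflurane and halothane at 3 MAC. Deviations of same-numbered arrays from their group means correlated at r from −0.08 to 0.10 over 18 pairs (mean 0.01, against −0.0069 for other pairs), which does not settle whether the number is the mother. With 3 arrays a group and no spot intensities, signal over background could not be judged for any probe.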

Other observations

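Markers of the remaining cell types were measured on the same arrays. The mean over 7 microglia markers lay between −0.47 and −0.43 with halothane 3 MAC, at −0.48 to 0.21 on the controls, −0.21 to 0.44 with halothane 1 MAC and −0.58 to 0.69 with isoflurane, where replicate 2 had the lowest Tyrobp of all arrays (−0.85 against 0.42 and 0.50 on the other isoflurane arrays). Another microglia marker, C1qb, was lowest of all arrays on isoflurane replicate 3 (−2.92), so these markers did not order the isoflurane arrays alike. Their part in the values of the target genes was not tested. The fibroblast mean over 4 markers was lower with isoflurane (−0.57 to −0.41) than with halothane 3 MAC (0.14 to 0.27). Of 8 oligodendrocyte-lineage, 8 endothelial and pericyte, 8 microglia and 4 fibroblast markers, 0 passed in any of the 5 comparisons by limma. Of all features, 3.5% passed between isoflurane and halothane at 3 MAC, 0.0725% between isoflurane and control, and 0% in the others. Between isoflurane and halothane at 3 MAC, Nes, a progenitor and reactive astrocyte filament gene, was higher by 1.25 and Gad1, a GABA-synthesising enzyme, was lower, at −1.21 (limma adjusted p = 0.0116 and 0.0287), the only other passing markers besides those of astrocytes.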
